A study of Mus musculus with 8 samples.

Results

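The 33 genes described here encode ribosome biogenesis factors, proteins that make, modify and assemble ribosomal RNA into subunits but are not part of the finished ribosome. They were chosen by name from a list of nucleolar and pre-ribosome assembly factors, with earlier results of these data known. All 33 had a probe that passed the detection filter, among 16593 named genes on the array and 8183 that could be tested. The list was divided by role into 7 proteins of small nucleolar ribonucleoproteins (snoRNPs), 10 small subunit factors, 12 large subunit factors and 4 other nucleolar proteins. The cells were MLP-29, a single mouse liver progenitor line, which was starved stepwise and then kept in low serum, with control medium or with recombinant hepatocyte growth factor (HGF) for 1 h, 6 h or 24 h. HGF acts on cells through Met, a receptor tyrosine kinase. The control cells had the same starvation and serum, all points of the course were lysed together, and the whole experiment was done on separate occasions to give replicates a and b, so that each of the 4 groups had 2 Illumina bead arrays.

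Ribosome production begins in the nucleolus, where RNA polymerase I transcribes a long precursor RNA. Box C/D and box H/ACA snoRNPs guide the methylation and pseudouridylation of that precursor, while separate sets of assembly factors fold, cleave and export the parts that become the small and the large subunit. The pathway is known to be switched up when growth factors move resting cells into growth.

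Signals are given as the log2 of the background-corrected and quantile-normalised intensity, so that a step of 1 is a doubling, and levels are compared between arrays for 1 probe and never between probes. A gene was called higher or lower at a Benjamini-Hochberg adjusted p under 0.05 in limma's moderated test, fitted over the 8 arrays and adjusted over the 8183 genes. With 2 arrays a group, the test rests on the spread between repeats pooled over the 4 groups. Across arrays 45.0% to 46.3% of the 25697 probes were detected, and the 2 arrays of a group correlated across genes at 0.990 to 0.993. Of cell type markers, 6 of the 8 measured biliary and progenitor markers were detected on both control arrays (Krt7, Krt8, Krt18, Krt19, Sox9 and Cdh1), against 1 of 9 hepatocyte markers (Hnf4a), 0 of 4 haematopoietic, 0 of 5 endothelial and 0 of 7 stellate and fibroblast markers; Prom1, Cldn4 and albumin (Alb) were not detected on any array. In RNA from whole cultures, a change in the share of cells that express a gene cannot be told apart from a change in each cell.

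After 6 h of HGF, 18 of the 33 factors were called higher than in control (54.5%) and 0 lower, where 9.25% of all genes tested were called higher and 12.1% lower. The median change of the 33 was 0.55 on the log2 scale, and that of all genes was -0.03. Both 6 h arrays lay above both control arrays for 29 of the 33, a pattern found in 28.3% of all genes, and below for 0, against 33.4%. The changes spread from -0.14 for Ddx52 to 1.00 for Nop56. Averaged over the 33 and set against the control mean, the members stood at 0.54 and 0.55 on the 2 arrays of 6 h. The control arrays stood at -0.01 and 0.01, which mirror each other because they define that mean. The average thus moved by like amounts in the repeats, which need not hold for single genes or classes. Under median scaling in place of quantile normalisation, 8 of the 18 calls held, and 322 of all 8183 genes were called higher, against 757. Fewer members were called with a control or 6 h array left out, the fewest without 6 h replicate b. The same was true of all genes tested. The median change of the 33 was then 0.54 to 0.60. The calls lost under median scaling were those of Nop58, Heatr1, Ltv1, Bop1, Gnl2, Gnl3, Mrto4, Nop2, Pes1 and Ddx21. With a replicate block, which pairs the arrays of 1 occasion, 21 members were called higher, where 12.5% of all genes were. They were the 18 and also Fbl, Imp4 and Noc3l. Gar1, Nop56, Ebna1bp2, Grwd1, Lyar and Ncl were called in every one of the 14 alternative settings.

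**Figure D1:**
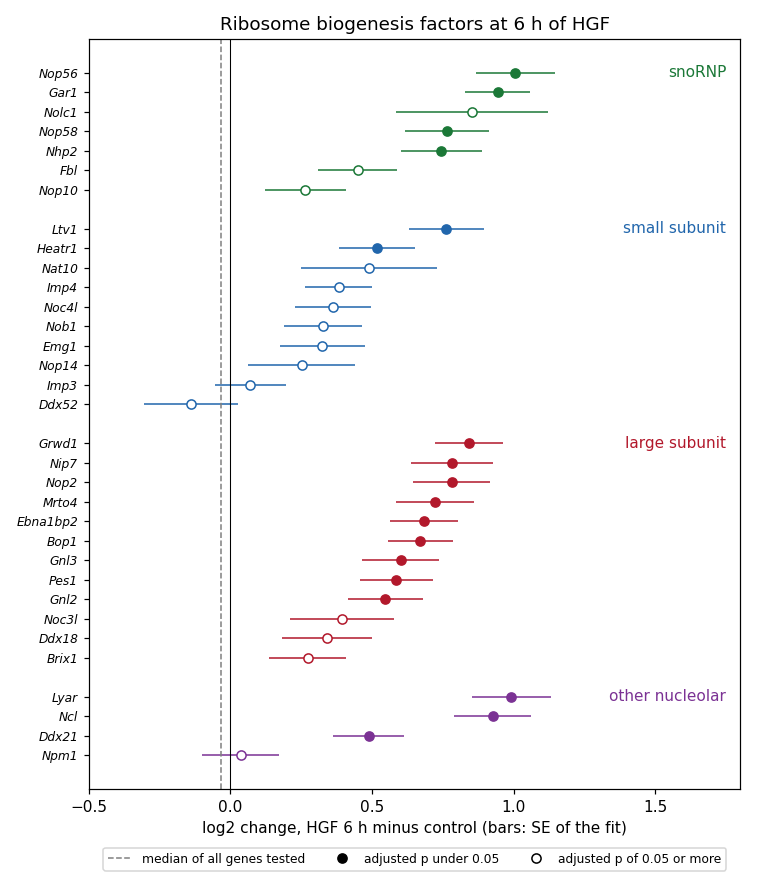
Log2 change at 6 h of HGF minus control for each of the 33 factors, by class, with bars for the standard error of the fit over 8 arrays (2 per group) and a dashed line at the median of all genes tested. Filled points are the 18 genes with an adjusted p under 0.05; Ddx52 is the only factor left of 0.

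By role, the genes called higher at 6 h were 4 of the 7 snoRNP proteins and 2 of the 10 small subunit factors. They were also 9 of the 12 large subunit factors and 3 of the 4 other nucleolar proteins, where 9.25% of all genes tested were called higher. The class medians were 0.76, 0.34, 0.64 and 0.71 in the same order. With the replicate block the counts were 5, 3, 10 and 3, where 12.5% of all genes were called higher. Under median scaling the counts became 3, 0, 3 and 2, beside 322 called higher among all 8183 genes. With 1 array left out the class medians ran from 0.76 to 0.80, 0.25 to 0.42, 0.62 to 0.66 and 0.59 to 0.82. Fewer large subunit factors, and fewer of all genes, were then called without a control or 6 h array. Fewer small subunit factors were called without control replicate b, 6 h replicate b or either 24 h array. No test was made of the difference between classes, whose genes were measured on the same arrays and are not replicates.

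The snoRNP proteins all had positive changes at 6 h, from 0.26 to 1.00, and both 6 h arrays exceeded both control arrays for 7 of 7. Nop56 is a scaffold protein of the box C/D particles. Its log2 signal was 11.25 and 11.09 in control, 11.47 and 11.36 at 1 h, 12.30 and 12.04 at 6 h, and 11.98 and 11.85 at 24 h (replicates a and b in that order). Every HGF array was above both control arrays, and the 6 h pair was the highest. The 6 h change was 1.00 ± 0.14 (SE, n = 2 arrays per group), a 2.01-fold rise with an adjusted p of 0.0037. Gar1, a core protein of the box H/ACA particles, gave 12.85 and 12.71 in control, 12.91 and 13.00 at 1 h, 13.71 and 13.74 at 6 h, and 13.25 and 13.26 at 24 h. Its 4 pairs of arrays did not overlap. It rose by 0.94 ± 0.12 at 6 h (1.92-fold, adjusted p = 0.00242).

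Nop58, the partner of Nop56 in the box C/D particle, rose by 0.76 ± 0.15 (adjusted p = 0.0117), and Nhp2, a partner of Gar1, rose by 0.74 ± 0.14 (adjusted p = 0.0112). Fibrillarin (Fbl), the methyltransferase of the box C/D particles, did not pass the test, at 0.45 ± 0.14 (adjusted p = 0.0562), but did in the paired fit with a replicate block (adjusted p = 0.0493). Nop10, the smallest H/ACA core protein, read 13.11 and 13.34 in control, 13.12 and 13.21 at 1 h, 13.57 and 13.41 at 6 h, and 13.43 and 13.20 at 24 h. The 6 h pair lay just above control and overlapped 24 h, and the change of 0.26 ± 0.14 did not pass (adjusted p = 0.228), with a 95% interval of -0.07 to 0.60. Nolc1, a nucleolar chaperone of snoRNPs, had a dim probe, with raw intensities of 255.6 and 230.5 at 6 h and of 188.5 and 153.6 in control. Its normalised log2 signal was 6.59 and 6.42 in control, 7.28 and 6.46 at 1 h, 7.28 and 7.43 at 6 h, and 6.55 and 7.01 at 24 h. The 6 h pair was above control, while the 1 h and 24 h pairs spread widely. The 6 h difference of 0.85 ± 0.27 did not pass (adjusted p = 0.0593), and its error was the widest of the 33.

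Among the small subunit factors Ltv1 and Heatr1 were called. Ltv1 is an assembly factor of late small subunit precursors. It gave 9.44 and 9.59 in control, 10.19 and 10.15 at 1 h, 10.35 and 10.21 at 6 h, and 9.73 and 9.94 at 24 h. The 1 h and 6 h arrays stood together above the control and 24 h arrays. Its change was 0.65 ± 0.13 at 1 h (adjusted p = 0.0349) and 0.76 ± 0.13 at 6 h (adjusted p = 0.00798). Heatr1, a large repeat protein of the processome that handles the early small subunit precursor, gave 12.05 and 11.79 in control, 11.79 and 11.96 at 1 h, 12.42 and 12.46 at 6 h, and 12.20 and 12.27 at 24 h. The 6 h pair was the highest, and the rise was 0.52 ± 0.14 (adjusted p = 0.033). Of its 4 probes, 2 were undetected on all arrays, and the other kept probe moved by 0.66.

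The other 8 small subunit factors did not pass at 6 h. Nat10, which acetylates cytidines in ribosomal RNA, had a dim probe that read 6.30 and 6.32 in control, 6.33 and 6.23 at 1 h, 6.42 and 7.18 at 6 h, and 6.41 and 6.77 at 24 h. Replicate b at 6 h stood highest, well apart from replicate a, and the difference of 0.49 ± 0.24 did not pass (adjusted p = 0.188). Imp3, a component of the processome, read 13.73 and 13.62 in control, 13.59 and 13.52 at 1 h, 13.68 and 13.80 at 6 h, and 13.69 and 13.87 at 24 h. Its 6 h and 24 h arrays overlapped control. Its change was 0.07 ± 0.12 with a 95% interval of -0.22 to 0.36. Its processome partner Imp4 missed the threshold narrowly at 0.38 ± 0.12 (adjusted p = 0.0556) and passed in the paired fit (adjusted p = 0.0432), while its second kept probe changed by 0.62 ± 0.14 (adjusted p = 0.0203 in the fit of all kept probes). Ddx52, an RNA helicase, was the sole member with a negative value, -0.14 ± 0.17 (adjusted p = 0.593). Emg1, Nob1, Noc4l and Nop14 lay between 0.25 and 0.36.

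All 12 large subunit factors had both 6 h arrays above both control arrays, and their changes ran from 0.27 to 0.84. Grwd1, whose yeast counterpart is a chaperone of a ribosomal protein of the large subunit, gave 10.81 and 10.80 in control, 11.10 and 11.11 at 1 h, 11.55 and 11.74 at 6 h, and 11.24 and 11.16 at 24 h. No 2 groups overlapped, with control lowest and 6 h highest. At 6 h it rose by 0.84 ± 0.12 (1.79-fold, adjusted p = 0.00414). Nip7, a factor of pre-ribosomal RNA processing, read 11.23 and 11.36 in control, 11.50 and 11.82 at 1 h, 12.00 and 12.16 at 6 h, and 11.71 and 11.73 at 24 h. Control was the lowest pair and 6 h the highest. It rose by 0.78 ± 0.14 (adjusted p = 0.0101), as read by the 1 of its 3 probes that was detected.

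Nop2, a methyltransferase of large subunit RNA, read 10.28 and 10.09 in control, 10.04 and 10.21 at 1 h, 11.02 and 10.92 at 6 h, and 10.28 and 10.47 at 24 h. The 6 h pair stood clear of the rest. The brightest of its 3 kept probes rose by 0.78 ± 0.14 (adjusted p = 0.00846), and the other two moved by 1.00 and 1.38. Bop1 and Pes1 belong to the PeBoW complex, which acts on large subunit precursors. Bop1 rose by 0.67 ± 0.12 (adjusted p = 0.00798) and Pes1 by 0.58 ± 0.13 (adjusted p = 0.0186). Ebna1bp2, whose yeast counterpart is needed for large subunit assembly, rose by 0.68 ± 0.12 (adjusted p = 0.00823). Mrto4 rose by 0.72 and the nucleolar GTPases Gnl3 (nucleostemin) and Gnl2 by 0.60 and 0.55. A second, dimmer Gnl3 probe moved by 1.29, and a second Gnl2 probe by 0.35 without passing (adjusted p = 0.221). Brix1, Noc3l and the helicase Ddx18 did not pass, at 0.27, 0.39 and 0.34; in the paired fit Noc3l did (adjusted p = 0.036). Brix1, an assembly factor of large subunit precursors, read 12.98 and 13.15 in control, 12.87 and 13.15 at 1 h, 13.36 and 13.31 at 6 h, and 13.24 and 13.22 at 24 h. Its 6 h pair was the highest, by a small margin over 24 h. The second kept probe of Brix1 gave 0.51 ± 0.15 (adjusted p = 0.0494 in the fit of all kept probes).

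Of the other nucleolar proteins, Lyar, a nucleolar zinc finger protein, read 9.20 and 9.43 in control, 9.37 and 9.23 at 1 h, 10.28 and 10.33 at 6 h, and 9.71 and 9.49 at 24 h. Control and 1 h arrays overlapped, and the 6 h pair stood clear of all others. The 6 h rise was 0.99 ± 0.14 (1.99-fold, adjusted p = 0.00384). Nucleolin (Ncl), an abundant RNA-binding protein of the nucleolus, gave 11.09 and 11.31 in control, 11.24 and 11.28 at 1 h, 12.23 and 12.01 at 6 h, and 11.54 and 11.47 at 24 h. The same order was seen, and the 6 h rise was 0.93 ± 0.14 (adjusted p = 0.0046). Ddx21, a helicase that links RNA polymerase I transcription with RNA processing, rose by 0.49 ± 0.13 (adjusted p = 0.0321). Nucleophosmin (Npm1), a histone and ribosome chaperone, read 15.32 and 15.28 in control, 15.18 and 15.06 at 1 h, 15.49 and 15.19 at 6 h, and 15.27 and 15.20 at 24 h. The 6 h arrays lay on either side of the control pair. The change was 0.04 ± 0.14, with a 95% interval of -0.28 to 0.35, from a very bright probe whose raw intensity was 49396.5 and 32792.2 at 6 h and 43899.4 and 38472.3 in control. Whether any probe also reads near-identical gene copies was not examined here.

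**Figure D2:**
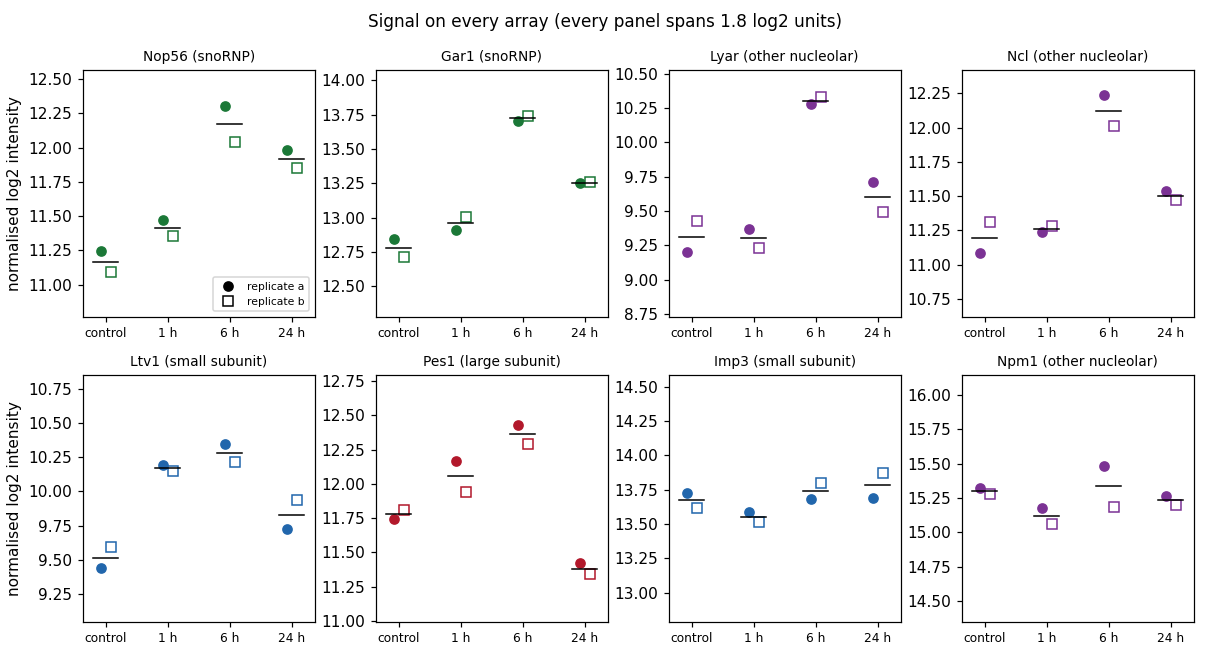
Normalised log2 intensity on each of the 8 arrays for Nop56, Gar1, Lyar, Ncl, Ltv1, Pes1, Imp3 and Npm1, with filled circles for replicate a, open squares for replicate b and a line at the group mean. The 6 h arrays are the highest for Nop56, Gar1, Lyar and Ncl, the Pes1 arrays at 24 h lie below control, and the Imp3 and Npm1 groups at 6 h overlap control.

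For each class, the genes with the steepest called rises at 6 h were taken, and shared control of them was not tested. Their promoters are printed below, so that the start regions can be compared. Each is 300 bases from 250 before to 50 after the annotated start in RefSeq (build GRCm38.p6), read along the strand of the gene. Capitals mark the E-box CACGTG, its variant CACGCG (or CGCGTG on the opposite strand) and the ETS core CCGGAA (or TTCCGG).
Nop56 promoter, chr2:130274162-130274461, plus strand: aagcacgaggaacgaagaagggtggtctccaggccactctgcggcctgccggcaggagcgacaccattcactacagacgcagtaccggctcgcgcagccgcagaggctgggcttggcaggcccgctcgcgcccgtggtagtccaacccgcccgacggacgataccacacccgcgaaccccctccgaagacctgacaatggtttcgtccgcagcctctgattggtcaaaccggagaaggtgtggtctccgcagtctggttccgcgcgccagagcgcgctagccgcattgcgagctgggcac
Gar1 promoter, chr3:129831347-129831646, minus strand: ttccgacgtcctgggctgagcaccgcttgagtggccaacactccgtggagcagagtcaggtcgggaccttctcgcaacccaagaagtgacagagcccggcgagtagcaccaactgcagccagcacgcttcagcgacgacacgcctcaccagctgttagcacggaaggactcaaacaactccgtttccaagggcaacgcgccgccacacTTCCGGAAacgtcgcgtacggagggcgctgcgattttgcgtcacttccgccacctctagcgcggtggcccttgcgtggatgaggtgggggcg
Ltv1 promoter, chr10:13193088-13193387, minus strand: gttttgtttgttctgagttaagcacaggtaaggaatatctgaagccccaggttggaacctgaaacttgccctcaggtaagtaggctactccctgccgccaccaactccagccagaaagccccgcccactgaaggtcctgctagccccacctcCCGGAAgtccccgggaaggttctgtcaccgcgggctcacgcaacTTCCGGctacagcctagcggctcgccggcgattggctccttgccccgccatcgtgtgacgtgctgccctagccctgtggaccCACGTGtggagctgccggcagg
Heatr1 promoter, chr13:12395125-12395424, plus strand: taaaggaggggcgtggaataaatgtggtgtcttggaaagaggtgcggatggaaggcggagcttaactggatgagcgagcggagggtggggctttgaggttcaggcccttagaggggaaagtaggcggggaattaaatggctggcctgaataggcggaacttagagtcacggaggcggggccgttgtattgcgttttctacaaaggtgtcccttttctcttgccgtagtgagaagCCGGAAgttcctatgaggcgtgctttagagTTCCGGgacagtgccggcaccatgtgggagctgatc
Grwd1 promoter, chr7:45830740-45831039, minus strand: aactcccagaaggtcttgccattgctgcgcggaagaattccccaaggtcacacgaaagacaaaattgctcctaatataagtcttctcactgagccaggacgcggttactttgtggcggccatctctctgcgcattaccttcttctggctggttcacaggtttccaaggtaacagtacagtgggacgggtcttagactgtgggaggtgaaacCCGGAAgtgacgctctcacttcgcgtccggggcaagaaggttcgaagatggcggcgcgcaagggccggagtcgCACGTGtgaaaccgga
Nip7 promoter, chr8:107056627-107056926, plus strand: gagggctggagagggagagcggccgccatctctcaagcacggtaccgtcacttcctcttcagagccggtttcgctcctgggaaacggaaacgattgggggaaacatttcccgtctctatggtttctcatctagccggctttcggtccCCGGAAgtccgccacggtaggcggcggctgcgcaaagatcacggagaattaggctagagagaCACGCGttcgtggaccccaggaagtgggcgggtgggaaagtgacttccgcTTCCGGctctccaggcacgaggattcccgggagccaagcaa
Lyar promoter, chr5:38220232-38220531, plus strand: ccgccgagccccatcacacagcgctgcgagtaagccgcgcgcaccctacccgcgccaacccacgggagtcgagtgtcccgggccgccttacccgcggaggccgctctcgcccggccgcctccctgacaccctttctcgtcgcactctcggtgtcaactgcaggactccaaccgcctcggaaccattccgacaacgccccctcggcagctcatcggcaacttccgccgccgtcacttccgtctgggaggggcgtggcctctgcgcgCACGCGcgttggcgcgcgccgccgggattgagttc
Ncl promoter, chr1:86359406-86359705, minus strand: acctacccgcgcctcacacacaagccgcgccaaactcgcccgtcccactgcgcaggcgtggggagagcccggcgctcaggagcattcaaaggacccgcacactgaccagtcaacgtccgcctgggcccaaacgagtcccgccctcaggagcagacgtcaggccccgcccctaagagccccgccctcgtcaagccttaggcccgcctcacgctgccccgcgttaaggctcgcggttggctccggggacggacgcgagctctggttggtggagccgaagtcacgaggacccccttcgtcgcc

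The table of promoters held 29 of the 33 members; Bop1, Fbl, Gnl2 and Npm1 were not in it. The E-box CACGTG, which reads the same on both strands and is bound by Myc and related proteins, lay in 5 of the 29 windows (17.2%), against 12.1% of the 6725 tested genes with a window and 8.09% of all 27025 genes in the table. Those 5 were Grwd1, Ltv1, Pes1, Nop2 and Imp4, at positions 35, 29, 3, -60 and -121 from the start in that order. The variant CACGCG was in 7 of 29 (24.1%) against 20.2% of tested genes. The ETS core CCGGAA, searched on both strands, was in 13 of 29 (44.8%) against 33.5%, and a pair of matches can overlap, as in Gar1. The TATAAA letters were in 1 window, that of Pes1 (3.45% against 8.82%). Each of the 29 members had 1 window, while a gene with several windows was counted if any of them held the letters. No test was made of these shares, and a match is a description of the letters and not of binding.

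Several members also carry snoRNA genes within their spans in the RefSeq annotation. Such snoRNAs are commonly cut from the introns of their host transcripts. The annotation placed 14 snoRNA genes within 4 of the 33 members (12.1%), against 184 of 8179 tested genes with a position (2.25%); strand was not compared. Nop56 (chromosome 2, 130274367 to 130279313) held 5, among them Snord57 and Snord110. Nop58 (chromosome 1, 59684961 to 59711510) held 4, among them Snord70 and Snord11. Gnl3 held 3, among them Snord69 and Snord19, and Ncl held 2, Snora75 and Snord82. These 4 hosts were all among the 18 of 33 members called higher at 6 h (54.5%), where 9.25% of all genes tested were. The calls of Nop58 and Gnl3 were lost under median scaling. How many of the 184 tested host genes were called was not counted, and no link was tested. The snoRNAs themselves were not examined on the array.

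The earliest time gave little change. After 1 h of HGF, 1 of the 33 factors was called higher (3.03%), which was Ltv1, and 0 lower, where 2.62% of all genes were called higher and 2.16% lower, so the share was near that background. The median change of the 33 was 0.02 and that of all genes -0.05. Both 1 h arrays were above both control arrays for 10 members and below for 4, against 19.2% and 29.8% of all genes. The Ltv1 call was lost under median scaling and whenever any 1 of the 8 arrays was left out, with adjusted p from 0.0515 to 0.218 over these 8 fits. Gnl2 was next by size, at 10.20 and 10.40 on the 1 h arrays and 9.94 and 9.76 on the control arrays. Its groups did not overlap, but the change of 0.45 ± 0.13 did not pass (adjusted p = 0.108).

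Between 1 h and 6 h, 12 of the 33 were called higher at 6 h (36.4%) and 0 lower, where 8.32% of all genes were called higher and 9.03% lower. Both 6 h arrays lay above both 1 h arrays for 30 of the 33 and below for 1, against 31.6% and 28.7% of all genes. The 12 were Gar1, Nhp2 and Nop56 among snoRNP proteins, Heatr1 and Nob1 among small subunit factors, Bop1, Ebna1bp2, Grwd1, Mrto4 and Nop2 among large subunit factors, and Lyar and Ncl. Lyar differed by 1.00 ± 0.14 (adjusted p = 0.00387) and Ebna1bp2 by 0.86 ± 0.12 (adjusted p = 0.00387). Nob1, the nuclease of the last cut in small subunit RNA, read 10.56 and 10.27 in control, 10.25 and 10.14 at 1 h, and 10.68 and 10.80 at 6 h. Its call between the times, 0.54 ± 0.14 (adjusted p = 0.0367), thus set 6 h arrays against 1 h arrays that were below control. Ltv1 differed by 0.11 ± 0.13 between the same times (adjusted p = 0.614). The replicate block added Nop58, Nip7, Ddx18 and Noc3l, for 16 called, where 11.5% of all genes were called higher. Under median scaling 6 of the 12 calls held, and 6 or 7 genes were called without 1 h replicate a, 1 h replicate b or 6 h replicate b.

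At 24 h of HGF, 0 of the 33 were called against control in limma's test, as were 0 of all 8183 genes (0%). At an unadjusted p under 0.05, 8 of the 33 members were higher and 1 lower, against 665 and 961 of all 8183 genes. The median change of the 33 was 0.27, and both 24 h arrays lay above both control arrays for 21 of the 33 and below for 2, patterns found in 24.4% and 28.3% of all genes. Nop56 had the largest value, 0.75 ± 0.14 (adjusted p = 0.0816). In the paired fit, which adds a replicate block for the occasion, Nop56 was called (adjusted p = 0.021) as the only member, where 1.96% of all genes were called higher. It was also called without background correction and in the authors' normalised table. By class, the 24 h medians were 0.28 for snoRNP proteins, 0.26 for small subunit factors, 0.23 for large subunit factors and 0.11 for other nucleolar proteins.

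**Figure D3:**
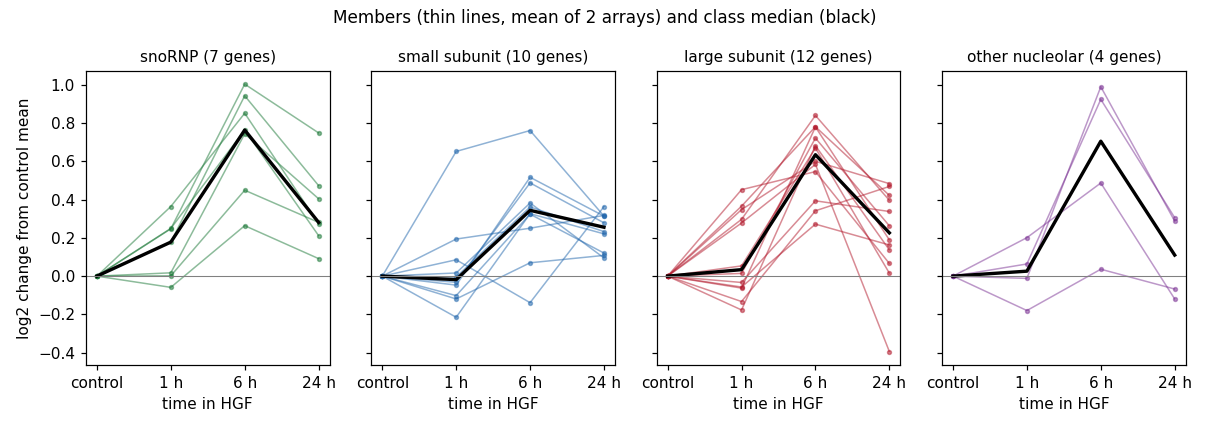
Log2 change from the control mean (vertical axis) for each factor at control, 1 h, 6 h and 24 h of HGF, 1 panel per class, as thin lines through the means of 2 arrays, with the class median in black. The class medians peak at 6 h, at 0.76, 0.34, 0.64 and 0.71, and stand between 0.11 and 0.28 at 24 h; the thin line that ends below control among large subunit factors is Pes1.

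Set against 6 h, 10 of the 33 were called lower at 24 h and 0 higher, where 6.31% of all genes were called lower and 6.92% higher. Both 24 h arrays lay below both 6 h arrays for 23 of the 33 and above for 1, Ddx52, against 28.5% and 30.8% of all genes. The 10 were Gar1 and Nop58 of the snoRNP proteins, Bop1, Ebna1bp2, Grwd1, Nop2 and Pes1 of the large subunit factors, and Ddx21, Lyar and Ncl, with no small subunit factor among them. The comparison shares the 6 h arrays with the comparisons above. The replicate block added Gnl2 and Mrto4, for 12 called, where 9.59% of all genes were called lower. The calls depended on single arrays: 1 to 3 genes were called when either 24 h or either 6 h array was left out, and 1 under median scaling.

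Pes1 had the steepest such fall. Its log2 signal was 11.75 and 11.81 in control, 12.17 and 11.94 at 1 h, 12.43 and 12.29 at 6 h, and 11.43 and 11.34 at 24 h. Both 24 h arrays were below every other array. The 24 h level was lower than at 6 h by -0.98 ± 0.13 on the log2 scale (adjusted p = 0.00449), while its difference from control, -0.39 ± 0.13, did not pass (adjusted p = 0.171). Bop1, its partner in the PeBoW complex, read 11.05 and 11.01 in control, 11.03 and 11.13 at 1 h, 11.64 and 11.76 at 6 h, and 11.07 and 11.02 at 24 h. Only the 6 h pair stood apart. Bop1 was lower at 24 h than at 6 h by -0.65 ± 0.12 (adjusted p = 0.0117), and its change from control at 24 h was 0.02, with a 95% interval of -0.25 to 0.28.

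Ddx21 read 11.49 and 11.72 in control, 11.85 and 11.77 at 1 h, 12.06 and 12.13 at 6 h, and 11.46 and 11.52 at 24 h. Its 24 h arrays overlapped control and lay below the 1 h and 6 h arrays. At 24 h it was lower than at 6 h by -0.61 ± 0.13 (adjusted p = 0.0207). Ebna1bp2 read 11.97 and 11.92 in control, 11.68 and 11.86 at 1 h, 12.64 and 12.62 at 6 h, and 12.06 and 12.12 at 24 h. Its 1 h arrays were the lowest and its 6 h arrays the highest of the 8. The difference of 24 h from 6 h was -0.55 ± 0.12 (adjusted p = 0.0234). Gnl3 and Ddx18 were among the 23 members not called between these times. Gnl3 read 13.59 and 13.75 at 24 h and 13.83 and 13.75 at 6 h. Ddx18 had 12.65 and 12.67 at 24 h and 12.37 and 12.70 at 6 h. Neither difference passed (adjusted p = 0.624 for Gnl3 and 0.65 for Ddx18), and the groups overlapped.

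The wider pathway was read from a list of 129 other genes of ribosome production, also chosen with earlier results of these data known. Of them, 107 were on the array and 91 were tested. At 6 h, 28 of the 91 were called higher (30.8%, or 36 genes with the replicate block) and 1 lower. Of all genes tested, 9.25% were called higher and 12.1% lower, or 12.5% higher with the block. The median change of the 91 was 0.38, beside the 18 of 33 called and the 0.55 of the factors above. For the 91, counts under median scaling or with 1 array left out are not given. The lists thus stand side by side in the main and blocked fits only. Among RNA polymerase I genes 2 of 7 were called higher, which were Polr1a, the largest subunit, at 0.61 ± 0.14 (adjusted p = 0.023), and Polr1e at 0.80 ± 0.21 (adjusted p = 0.0347). Of further snoRNP genes 4 of 7 were called higher, among them Rrp9 at 0.69 ± 0.12 (adjusted p = 0.00918) and Ruvbl2, an ATPase of snoRNP assembly, at 0.71 ± 0.14 (adjusted p = 0.0119).

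Further small subunit factors were called higher in 11 of 33 cases and further large subunit factors in 9 of 33, with medians of 0.34 and 0.39. These shares, 33.3% and 27.3%, stand beside the 20% of small and 75% of large subunit factors called above, and the 9.25% of all genes. Krr1, a small subunit factor, rose by 1.03 ± 0.14 (adjusted p = 0.00361) and Nol10 by 0.74 ± 0.12 (adjusted p = 0.00641). On the large subunit side, Mak16 rose by 1.05 ± 0.16 (adjusted p = 0.00495) and Rrp15 by 0.92 ± 0.11 (adjusted p = 0.00242). Genes of the RNA exosome, which trims the ends of precursor RNA, were called higher in 2 of 11 cases, Exosc1 at 0.68 ± 0.13 (adjusted p = 0.0126) and its cofactor Mphosph6 at 0.57 ± 0.12 (adjusted p = 0.0167). The 1 gene that fell was Rrp7a, a small subunit factor, at -0.52 ± 0.14 (adjusted p = 0.0375), named here after its value was seen.

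**Figure D4:**
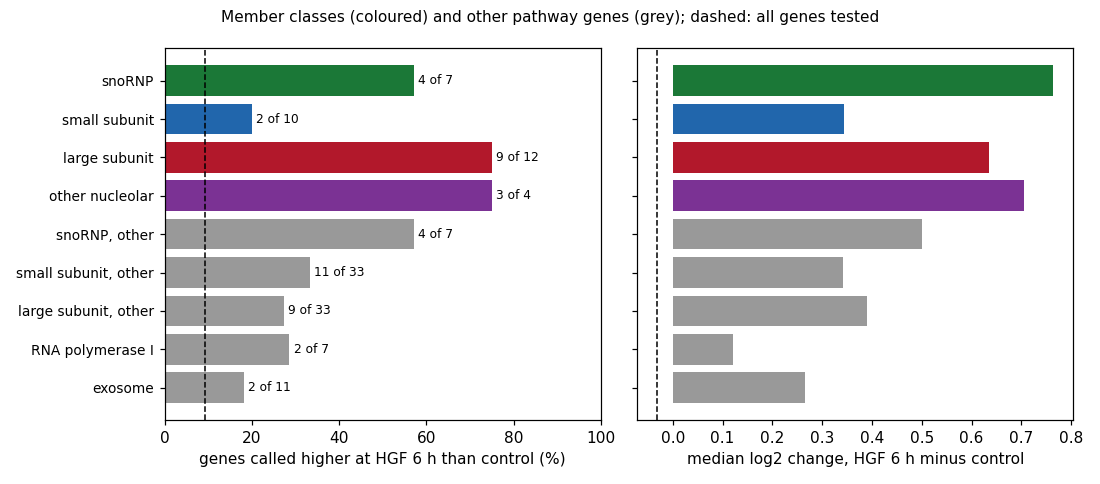
Share of genes called higher at 6 h of HGF than in control (left, percent, with counts) and median log2 change at 6 h minus control (right) for the 4 classes of factors (coloured) and 5 lists of other pathway genes (grey), with dashed lines for all genes tested (9.25% and -0.03). In the main fit, small and large subunit classes lie apart among the factors (2 of 10 and 9 of 12). They lie close together in the longer lists (11 of 33 and 9 of 33). Under median scaling, which is not shown, the factors gave 0 of 10 and 3 of 12, and counts for the longer lists are not given.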

How the data were processed

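RNA of 8 MLP-29 cultures was measured on 1-colour Illumina Mouse8 V2 arrays. The deposited table holds a summary signal per probe, a linear intensity that the authors deposited before any background subtraction or normalisation. Beside it stands a deposited detection p-value for each probe and array. A second table holds the authors' normalised intensity; it kept the rank order of each raw array (rank correlation 1.00), while the labels and headers name no method for it. GenomeStudio 1.9.0 is the tool named by the submitters' processing notes. Per-sample columns were all used.

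Probes were named by the platform annotation (23978 with 1 symbol, 1719 with none, 0 with several; 23962 matched a current gene table by ID). In limma 3.58.1 (R 4.3.3) the intensity was corrected by normexp from the detection p (offset 16), quantile normalised and put on the log2 scale, so folds of dim genes are understated. Kept probes had a detection p under 0.05 on each array of 1 or more groups, and the brightest probe stood for its gene. Of 53 probes of the 33 members, 49 were kept, in 14 members more than 1; all 14 had kept probes of 1 direction at 6 h, and 4 (Brix1, Ebna1bp2, Gnl2 and Imp4) had probes that differed in the call. lmFit and eBayes were fitted over 8 arrays (4 residual degrees of freedom, no block), with Benjamini-Hochberg adjustment over 8183 genes. The script was tested on simulated data.

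The labels say that the whole course was repeated to give the replicates. The a minus b difference correlated across genes between all 6 pairs of groups (0.194 to 0.443), so the letter was taken to pair the arrays, and the blocked fit is quoted beside each member and member count whose calls it changed. Alternatives were that block, median scaling, no background correction, an offset of 50, no filter on dim probes, the authors' table, and leaving out each array.

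The members, the classes and the list of other pathway genes were chosen with earlier results of these data known. Values on every array are given for the 3 members per class of largest change at 6 h and the 1 of smallest, for members called at 1 h, and for up to 5 of smallest adjusted p between 24 h and 6 h. Of the other pathway genes, the 2 of smallest adjusted p per list are named; members outside this rule are given so that all 33 are accounted for, and those shown by arrays among them (Gnl2, Nob1, Gnl3 and Ddx18) and Rrp7a were picked after their values were seen.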

Additional observations from a re-analysis of the deposited data

Results flagged for a closer look

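The change against control differed between times for the following members, by limma's test of one time against another, adjusted over all genes. Of 6 h over 1 h, the differences were 1.00 for Lyar, 0.86 for Ebna1bp2, 0.86 for Ncl, 0.84 for Nop2, 0.77 for Gar1, 0.76 for Nop56, 0.73 for Nhp2, 0.71 for Mrto4, 0.62 for Bop1, 0.56 for Heatr1, 0.54 for Grwd1 and 0.54 for Nob1, with adjusted p from 0.00387 to 0.0367. Of 24 h over 6 h, they were -0.98 for Pes1, -0.70 for Lyar, -0.65 for Bop1, -0.62 for Ncl, -0.61 for Ddx21, -0.59 for Nop2, -0.55 for Ebna1bp2, -0.55 for Nop58, -0.47 for Gar1 and -0.44 for Grwd1, with adjusted p from 0.00449 to 0.0491. Both sets use the same 6 h arrays, so a high or low reading there enters each. With 2 arrays a group, no group was large enough to look for single arrays that stand apart.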

How the results depend on the processing

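The 18 members higher at 6 h became 8 under median scaling. With a control or 6 h array left out, fewer members and fewer of all genes were called. The members' median change was then 0.54 to 0.60, against 0.55 in the main fit. The 1 member at 1 h became 0 under median scaling and 0 with any 1 array left out. At 24 h, where the main count was 0, the replicate block, the fit without background correction and the authors' table each gave 1 (Nop56), and leaving out arrays gave 0. The 12 members higher at 6 h than at 1 h became 6 under median scaling and 6 to 12 with 1 array left out. The 10 lower at 24 h than at 6 h became 1 under median scaling and 1 to 8 with 1 array left out. The replicate block, which pairs the arrays, gave 1 at 1 h, 21 at 6 h, 16 at 6 h against 1 h and 12 at 24 h against 6 h, and took the large subunit factors higher at 6 h than at 1 h from 5 to 8. Over all genes it gave 369 higher and 363 lower at 1 h, against 214 and 177, and 160 and 269 at 24 h, against 0 and 0. Median scaling moved the median of all genes to -0.15 at 1 h and -0.16 at 6 h, and the split of all genes at 6 h to 322 higher and 963 lower, against 757 and 992; members then had a median of 0.42 at 6 h. At 24 h against 6 h the split became 454 higher and 209 lower, against 566 and 516, and at 6 h against 1 h 258 and 455, against 681 and 739. Of 798 values of the 19 named members over 14 alternatives and 3 times, 758 kept their side of the threshold, 31 lost it, 9 gained it and 0 called values turned round; the lowest 6 h change of a called member was 0.37. Most of the 798 values were not called in the main fit, so they had no call to lose. Of the 798, 22 changed sign. Under some alternative Fbl, Nolc1, Imp4, Nat10 and Noc3l were also called at 6 h. The cause of these shifts was not tested, beyond the fewer arrays in the fits that leave 1 out. With 2 arrays a group, misses are not evidence of no change, and the dim Nolc1 and Nat10 probes are limited by background.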
